A study of Mus musculus with 96 samples.

Results

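The 10 genes described here encode signals that injured epithelium releases, together with 1 intracellular inhibitor. They are Il1a, Il1rn and Il33 of the interleukin-1 (IL-1) family, Il24 of the IL-20 subfamily, Tslp, the chemokine genes Cxcl1, Cxcl2, Ppbp and Ccl20, and Nfkbia. The genes were taken by symbol from the deposited count matrix, in which each of the 10 had 1 row among 55487 genes. They were followed over 96 daughter cells and within the 48 sister pairs that these cells form.

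The cells were horizontal basal cells (HBCs), the reserve stem cells of the olfactory epithelium (OE), from wild type adult mice aged 6 to 8 weeks. The OE was dissected 2 days after an injection of methimazole, a drug that strips the OE of most cells other than HBCs. HBCs were then grown ex vivo, on dishes coated first with Tropoelastin and then with Fibronectin. Both daughters of a division were picked by hand, ERCC spike-in RNA was added to each lysate, and polyA RNA of each cell was sequenced with the G&T-seq protocol, a variant of full-length single-cell RNA-seq. All cells therefore shared the kind of injury, the coatings and the culture protocol, and uninjured or freshly dissected cells were not analysed here. GEO's labels name neither a mouse nor a culture for any cell, so the 96 cells were treated as 1 sample of 1 condition. Every value below is for that reason a description of these cells, without a test.

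IL-1α is stored in epithelial cells as an alarm signal that is released on damage, and the product of Il1rn is the secreted antagonist that occupies the same receptor without signalling. IL-33 and TSLP are alarm cytokines of barrier epithelia that act on immune cells of the type 2 response, whereas IL-24 acts on epithelial cells themselves. CXCL1, CXCL2 and CXCL7, the chemokine made from the Ppbp product, draw neutrophils through the receptor CXCR2, and CCL20 draws cells that carry CCR6. Many of these genes are targets of the transcription factor NF-κB, and Nfkbia encodes IκBα, which holds NF-κB in the cytoplasm and is itself induced by NF-κB as a feedback brake.

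The reads assigned to genes numbered 29454150 to 44849003 in a cell. They carried no molecular identifiers, so a count is a number of amplified reads and not of molecules. Levels between cells were scaled with ERCC size factors, which ranged from 0.387 to 1.93. Of the 5 HBC markers examined, Krt5, Krt14 and Itga6 had 100 or more reads in all 96 cells, Trp63 in 95 and Icam1 in 62. Of the 6 sustentacular cell markers only Sox2 was widely counted (83 cells at 100 or more reads), and Cyp1a2, Ermn and Sec14l3 were at 0 in every cell. Among 9 leukocyte markers Cd68, a lysosomal gene, reached 100 reads in 44 cells and the pan-leukocyte gene Ptprc in 2, while Cd3e was at 0 throughout. Leukocyte marker counts summed to between 0 and 11064 per cell (median 201).

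Low counts need a caution, which is plainest for Ppbp, Il24 and Ccl20. The deposited library names number the cells in 12 sets of 8, with a position in each set, and the low counts followed these numbers. Ppbp had 130136 reads in cell 17-2 (daughter 2 of pair 17). All 11 other cells at the same position in their set had 14 to 49 Ppbp reads, and all 7 other cells of the same set had 9 to 46. Of the remaining 77 cells, 18 had any Ppbp read and the median was 0. Il24 showed the same layout around cell 8-2, its highest cell with 40810 reads: all 11 cells at that position had a read, against 24 of 77 cells outside that set and position. For Ccl20, 9 of 11 cells at the position and 6 of 7 cells in the set of its highest cell (27-1, 36871 reads) had a read, against 16 of 77 others. For Cxcl2, 5 of its 7 counts of 1 to 99 reads lay in the set or at the position of its highest cell, 8-2. The cause was not tested. Because of this layout, a count of 100 or more reads is used below to call a gene well covered in a cell, a level chosen after these values were seen.

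**Figure D1:**
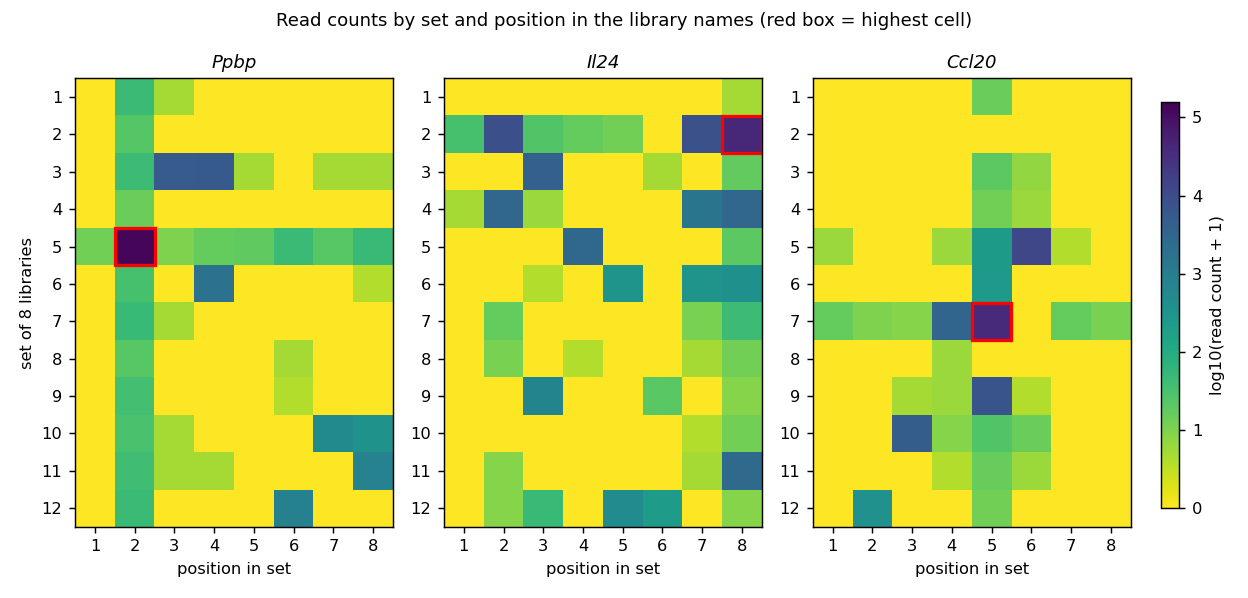
Read counts of Ppbp, Il24 and Ccl20 (colour, log10 of the read count + 1) by the set (12, vertical axis) and the position in the set (8, horizontal axis) that the library names give, with a red box around the highest cell. Low counts line up with the row and the column of the highest cell, as for Ppbp, with 14 to 49 reads in all 11 other cells at the position of cell 17-2.

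The 10 genes ranged from genes found in every cell to genes found in a few cells, some of them at very high levels there. Only Nfkbia and Il1rn had a read in all 96 cells and Cxcl1 in 90, so 3 of the 10 were counted in at least 90% of cells. Over all 32924 genes with a read in any cell, 24.5% met the same rule. At 100 or more reads, Nfkbia was covered in 95 cells, Il1rn in 71, Cxcl1 in 49 and Tslp in 27. Il24 reached that level in 15 cells, Ppbp and Ccl20 in 8 each, Il1a and Il33 in 4 each and Cxcl2 in 3. As shares of the 96 cells, with exact (Clopper-Pearson) 95% intervals that cover counting error only, this was 51.0% (40.6 to 61.4%) for Cxcl1, 28.1% (19.4 to 38.2%) for Tslp and 15.6% (9.02 to 24.5%) for Il24.

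**Figure D2:**
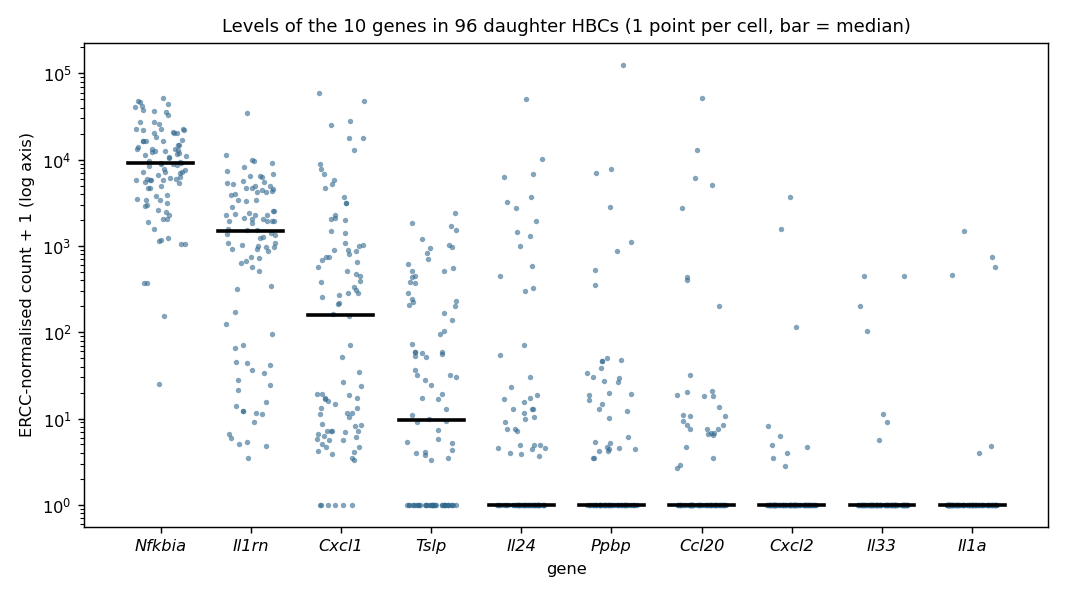
ERCC-normalised count + 1 (log axis) of each gene in each of 96 cells (points), with the median as a bar. Nfkbia is high in nearly all cells, and Il1rn is high in most but under 100 reads in 25. Cxcl1 spreads over the whole range, and 6 genes have a median of 0 with single cells far above it, such as Ppbp at 130136 reads in 1 cell.

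Because genes differ in length, levels were compared between genes as TPM. The median over cells was 262 TPM for Nfkbia (quartiles 136 and 493), 31.0 TPM for Il1rn (1.90 and 71.0), 5.67 TPM for Cxcl1 (0.339 and 45.2) and 0.364 TPM for Tslp (0 and 5.66). The quartile ranges of Nfkbia and Il1rn did not overlap, whereas those of Il1rn and Cxcl1, and of Cxcl1 and Tslp, did. For the other 6 genes the median was 0 TPM. Their highest single cells nevertheless exceeded every cell of Il1rn (highest 526 TPM) in 3 cases, with 4899 TPM for Ppbp, 2138 TPM for Ccl20 and 1674 TPM for Il24.

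A second way to show this is the number of cells that held 90% of a gene's normalised counts. It was 59 for Nfkbia, 45 for Il1rn, 21 for Tslp and 16 for Cxcl1. For Il24 it was 7 cells, for Ccl20 4 and for Ppbp 2. Over the 14463 genes with 10 or more reads in at least 10% of cells, the median was 50 cells, and 90% of these genes lay between 8 and 76. Il24, Ccl20 and Ppbp were thus below the 5th percentile of the filtered genes. Il1a, Il33 and Cxcl2 did not pass this filter, and 7 of the 10 members did.

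Of the 3 IL-1 family members, Il1rn, the gene of the antagonist, was widespread, and Il1a and Il33 were rare. Il1rn (chromosome 2, 24336853 to 24351494, plus strand) had a lowest count of 3, a median of 1530.5 and a highest count of 35914, in cell 4-1, whose sister had 864. Of the 71 cells with 100 or more reads, 59 had 1000 or more, and the other 25 cells were low. Il1a (chromosome 2, 129299610 to 129309972, minus strand) was counted in 6 cells, with 1532 reads in cell 4-1, 572 in 40-2, 552 in 9-1 and 294 in 10-1. The remaining cells, 13-1 and 28-2, which are not sisters, had 4 and 3 reads. Each of the 4 cells with 100 or more Il1a reads also had 100 or more Il1rn reads, and 4-1 was the highest cell for both genes. With 71 of 96 cells at that Il1rn level, a relation between the genes was not tested. The Il1a gene is overlapped on the opposite strand by Gm14023, which had reads in 17 cells, and cells 9-1 and 10-1 had 181 and 154 of them. Reads from the genes cannot be told apart there if the counting ignored strand, whereas cells 4-1 and 40-2 had no Gm14023 read.

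Il33 (chromosome 19, 29925114 to 29960718), which also marks sustentacular cells in the OE, was counted in 7 cells. Its reads were 323 and 132 in the sisters 27-1 and 27-2, 246 in 23-1, 164 in 42-2, and 4 to 6 in 3 more cells. The summed sustentacular marker counts of the 4 covered cells (325 to 596, median 434) lay within those of the other cells (19 to 1854, median 595). This sum mainly follows Sox2, which had a read in all 96 cells (median count 572.5, beside 589 for the sum). It therefore cannot show whether the Il33 cells resemble sustentacular cells. Counts of the size of those of Il33 in isolated cells also occurred for the spike-in, which was added in the same amount to every cell. The 29 ERCC transcripts that reached 100 reads in 1 to 10 cells had highest counts of 103 to 2570 (median 678). The highest counts of Il33 (323) and Il1a (1532) fell inside that range, and those of Cxcl2 (3001), Il24, Ppbp, Ccl20 and Cxcl1 were above it.

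The other IL-1 family ligand gene that was widespread in these cells was Il36g, the gene of IL-36γ, a ligand of barrier epithelia with its own receptor. It had 100 or more reads in 55 cells, a median count of 407 and a highest count of 28165. Of the receptor chains, Il1r1, the receptor of IL-1α, was covered in 42 cells, the shared accessory chain Il1rap in 52, and the IL-36 receptor Il1rl2 in 47. The IL-33 receptor Il1rl1 had 15 reads in 1 cell. Capn2, the large subunit of a calpain that cleaves pro-IL-1α, was covered in all 96 cells (median count 8224), and Casp1, the protease of IL-1β, had no read in any of 96 cells. For cells like these that allows up to 3.13% with a read, which is not a limit on cells that express the gene. In all, 6 of the 18 genes listed for this family passed the filter on low counts, and 2 of the 18 had no read in any cell. Of all 55487 genes 14463 passed it, which is 43.9% of the 32924 genes with a read.

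Il24 (chromosome 1, 130882074 to 130887454, minus strand) was covered in few cells, and in both sisters of some pairs. Its 15 covered cells came from 11 of the 48 pairs and 8 of the 12 sets. In 4 pairs both sisters were covered: 8259 and 40810 reads in pair 8, 1504 and 2992 in pair 16, 316 and 385 in pair 24, and 498 and 221 in pair 47. In the other 7 pairs the covered sister had 318 to 8609 reads and its sister had 31 or fewer, with 0 in 4 of them. Of the 15 covered cells 53.3% had a covered sister, whereas 15.6% of all cells were covered. The 5 ERCC transcripts covered in a like number of cells (within 5 of the member's number) had both sisters covered in 0 to 2 pairs, and 0 to 20.0% of their covered cells had a covered sister. The receptor chains through which IL-24 signals were sparse: Il20rb was covered in 13 cells, Il20ra in 10 and Il22ra1 in 7, whereas Il10rb, which serves other ligands of the family, was covered in 69.

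Tslp was spread thinly, with a median of 10 reads and a highest count of 2284, in cell 4-2, whose sister had 60. Its 27 covered cells came from 23 pairs, and in 4 pairs both sisters were covered, among them pair 19 (1121 and 1812 reads) and pair 43 (1852 and 432). In 9 of the 19 pairs with 1 covered sister, the other sister had no read, as in pair 35 (1192 and 0) and pair 20 (688 and 0). The share of covered cells with a covered sister was 29.6%, close to the 28.1% of all cells. For the 3 ERCC transcripts of like coverage this share was 23.1 to 26.7%, with 3 to 4 pairs covered in both sisters. The TSLP receptor chain Crlf2 was covered in 10 cells (highest count 424), and Il7r, the other chain of that receptor, had no read in any cell.

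The chemokine genes Ppbp, Cxcl1 and Cxcl2 lie on the plus strand of 1 cluster on chromosome 5 (GRCm38), at 90768518 to 90770063, 90891241 to 90893115 and 90903871 to 90905938. Cxcl1 and Cxcl2 are neighbours 10756 bases apart. To show what the start regions of these genes and of Nfkbia share, 300 bases around a start site (250 before to 50 after, RefSeq, GRCm38.p6) were searched for 2 motifs on both strands. These were a κB-type motif, GGG and TTCC separated by any 3 bases, whose matches on opposite strands can overlap, and an AP-1 motif, TGANTCA. Of the 10 members 8 had an entry that was searched (Il24 and Tslp were not searched), 5 of them with a κB-type match (Cxcl1, Cxcl2, Nfkbia, Ccl20 and Il1rn) and 3 with an AP-1 match (Ppbp, Il1a and Il1rn). Of all 32851 windows in the table, 5.56% held the κB-type motif and 7.81% the AP-1 motif. These shares are per window, whereas a member was counted if any of its windows held a match. Il1rn and Il33 had more than 1 window, so the numbers are not of the same unit. The windows below are shown 5′ to 3′ on the gene's strand, with matches in capitals: Cxcl1 at chr5:90890995-90891294, Cxcl2 at chr5:90903649-90903948 and Ppbp at chr5:90768268-90768567 on the plus strand, and Nfkbia at chr12:55492598-55492897 on the minus strand.
Cxcl1: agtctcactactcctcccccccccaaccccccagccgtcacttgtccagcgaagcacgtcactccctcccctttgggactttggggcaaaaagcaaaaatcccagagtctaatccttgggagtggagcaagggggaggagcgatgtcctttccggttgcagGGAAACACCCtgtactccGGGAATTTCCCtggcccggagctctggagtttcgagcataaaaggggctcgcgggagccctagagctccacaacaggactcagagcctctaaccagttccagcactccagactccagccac
Cxcl2: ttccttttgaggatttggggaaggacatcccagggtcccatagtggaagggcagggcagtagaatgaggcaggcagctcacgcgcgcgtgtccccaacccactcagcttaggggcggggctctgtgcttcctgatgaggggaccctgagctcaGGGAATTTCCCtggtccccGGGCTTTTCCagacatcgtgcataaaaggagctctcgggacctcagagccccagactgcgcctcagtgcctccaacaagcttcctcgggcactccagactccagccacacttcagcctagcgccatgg
Ppbp: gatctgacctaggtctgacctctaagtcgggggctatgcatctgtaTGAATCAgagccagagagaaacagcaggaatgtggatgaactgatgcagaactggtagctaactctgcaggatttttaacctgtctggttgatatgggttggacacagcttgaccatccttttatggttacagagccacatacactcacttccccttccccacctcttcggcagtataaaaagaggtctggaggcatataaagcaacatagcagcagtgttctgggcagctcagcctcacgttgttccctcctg
Nfkbia: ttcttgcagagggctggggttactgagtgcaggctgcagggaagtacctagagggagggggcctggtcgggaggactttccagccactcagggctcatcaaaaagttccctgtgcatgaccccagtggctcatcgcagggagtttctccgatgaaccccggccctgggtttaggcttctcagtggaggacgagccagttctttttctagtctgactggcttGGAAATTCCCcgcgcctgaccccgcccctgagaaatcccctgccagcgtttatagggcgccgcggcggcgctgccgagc
Cxcl1 had 3 κB-type matches, which start at -89, -71 and -70 from the start site, and Cxcl2 had 3, at -97, -96 and -78. The run GGGAATTTCCC, in which 2 matches overlap, occurred in both windows. Nfkbia had 1 κB-type match at -29, and Ppbp had none but an AP-1 match at -204. A match describes letters in the window and is neither a proven site nor a cause of the counts.

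Cxcl1 was the chemokine member found in most cells, and the member whose sisters most often passed the 1.5-fold cutoff given below. Its counts ran from 0 to 40573 with a median of 116 and quartiles of 9 and 915.75. Of the 48 pairs, 10 had both sisters at 100 or more reads, 29 had 1 and 9 had none. Pairs with both sisters high did occur, as in pair 35 (10322 and 15947 reads) and pair 45 (28007 and 5320). More often 1 sister had nearly all the reads, as in pair 46 (40573 and 28), pair 12 (4 and 24275) and pair 4 (18295 and 7). Of the 49 covered cells 40.8% had a covered sister, beside the 51.0% of all cells that were covered. The spike-in, added alike to all lysates, gave a similar pattern: the 5 ERCC transcripts of like coverage had both sisters covered in 10 to 17 pairs, 1 in 18 to 28, and a covered sister for 42.6 to 65.4% of covered cells. Their highest counts were 913 to 8959, below the 40573 of Cxcl1.

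Cxcl2, the neighbour of Cxcl1 with the same motif run in its start region, did not accompany it in most cells. It was covered in 3 cells, 8-2 (3001 reads), 46-1 (1068) and 45-2 (104), all of them with 5320 or more Cxcl1 reads. Of the 15 cells with 3000 or more Cxcl1 reads, 11 had no Cxcl2 read at all. Cell 45-1 had 28007 Cxcl1 reads and 0 of Cxcl2, and cell 12-2 had 24275 and 0. The genes are close paralogs, so some reads could be assigned to the wrong copy, although the cells just named had no Cxcl2 read beside their Cxcl1 reads. Cxcl5, a related neutrophil chemokine of the cluster, was covered in 11 cells, 7 of which were covered for Cxcl1. Cxcl3, at 1073 reads in cell 10-2, was covered in that cell alone.

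Ppbp was the most concentrated member: cell 17-2 held 130136 reads, 89.6% of all Ppbp reads of the series and 0.299% of the gene reads of that cell, while its sister 17-1 had 12. In pair 10 both sisters were high and alike (4996 and 5227 reads), and in pair 40 both were covered at a lower level (547 and 353). In pairs 22, 44 and 47 the counts were 0 and 1853, 0 and 795, and 0 and 809. Ppbp is best known from megakaryocytes and platelets. The platelet markers Pf4, its neighbour 2372 bases away, and Treml1 had no read in any cell, and Gp9 had at most 3. Itga2b and Gp1bb, also platelet markers, each reached 100 reads in 6 cells, with highest counts of 1420 and 453. The 5 platelet markers summed to 0 to 297 reads in the 8 Ppbp cells (median 0.5) and to 0 to 1420 in the others (median 1). Leukocyte markers summed to 123 to 5554 (median 627) in the Ppbp cells and to 0 to 11064 (median 60) in the others, and their part in the result was not tested. This sum mainly follows the lysosomal gene Cd68, which had a read in 74 cells (highest count 11064), whereas Ptprc had one in 7. It therefore cannot show whether the Ppbp cells resemble leukocytes.

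Ccl20 (chromosome 1, 83116766 to 83119167, plus strand) was covered in 8 cells of 7 pairs. The sisters of pair 19 were both covered (235 and 12613 reads), and pair 27 was the extreme, with 36871 reads in 27-1 and 0 in 27-2. In pairs 26, 35 and 38 the covered sister had 3226, 6951 and 4693 reads and the other at most 8. In pairs 23 and 45 it had 239 and 368 reads and the other none. Cell 27-1 was also the cell with most Il33, and its sister 27-2 shared the Il33 reads but not Ccl20. The chemokine receptors through which these ligands act had few reads: Cxcr2 was covered in 7 cells (highest count 883) and Ccr6 had no read in any cell. Of 18 chemokine receptor genes 1 passed the filter on low counts, the scavenging receptor Ackr3, covered in 31 cells, and 9 had no read in any cell. Of all 55487 genes 14463 passed the filter and 32924 had a read.

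**Figure D3:**
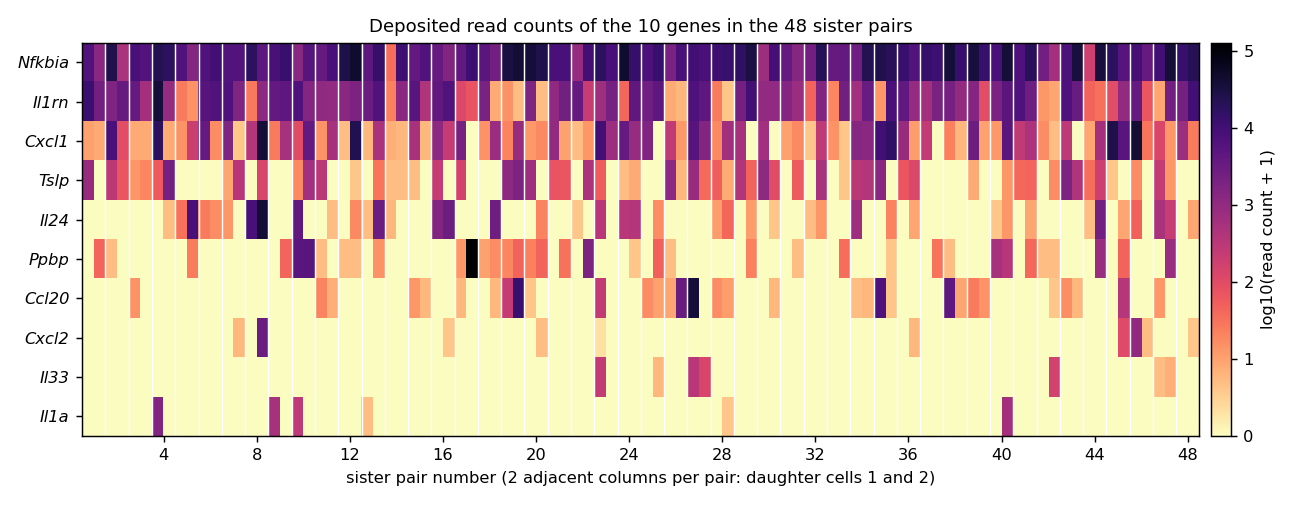
Deposited read counts (colour, log10 of the count + 1) of the 10 genes (vertical axis) in the 48 sister pairs (horizontal axis, 2 adjacent columns for the 2 daughters). Nfkbia fills almost every cell and Il1rn most, Cxcl1 often fills 1 daughter of a pair, and the lower 5 genes appear in few cells, with both daughters dark for Ppbp in pair 10.

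Nfkbia (chromosome 12, 55489410 to 55492647, minus strand) was the most even member. Its counts had a median of 8564 and quartiles of 4500.5 and 18166.2, with a highest count of 46316 in cell 12-2, whose sister had 28174. A few cells stood far below: 14-1 had 35 reads and its sister 11775, a 288-fold difference after normalisation, and 44-1 had 174 against 33388 in its sister. Gene totals of those low cells, 31105531 and 37971504, were within the range of the others.

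Genes of the NF-κB system were covered beside Nfkbia. Of the 20 regulators and targets listed, 19 passed the filter on low counts, 14 had 100 or more reads in at least 50% of cells and 6 in at least 90% of cells. Of all genes with a read 43.9% passed the filter, and of the filtered genes 61.2% and 30.5% met these coverage rules. The subunit genes Rela, Nfkb1 and Rel were covered in 87, 71 and 72 cells, and the kinase genes Chuk and Ikbkb in 89 and 86. Ier3, an NF-κB target and early response gene, had a median count of 25491. Tnfaip3, which encodes the ubiquitin-editing inhibitor A20, was covered in 38 cells and Relb in 26. The Spearman correlation of Nfkbia with the 18 other genes over 96 cells ran from -0.20 (Nfkbie) to 0.37 (Tnip1), with a median of 0.061. For Cxcl1 the correlation with the 19 genes ran from -0.11 to 0.25, with a median of 0.13.

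How often sister cells differed varied between the members, from below to above the median of the filtered genes. The higher sister had at least 1.5 times the normalised count + 1 of the lower in 43 of 48 pairs for Cxcl1, 39 for Il1rn, 36 for Tslp, 35 for Nfkbia, 29 for Il24 and 25 for Ppbp. These 6, out of the 7 members past the filter, thus met the cutoff in at least 50% of pairs. So did 79.5% of the 14463 filtered genes. The filtered genes met it in a median of 33 pairs, with 14 and 42 as 5th and 95th percentiles. Cxcl1, at 89.6% of pairs (exact 95% interval 77.3 to 96.5%), was above that 95th percentile. Ccl20, Cxcl2, Il1a and Il33 met it in 19, 9, 6 and 4 pairs, since both sisters were at 0 in most of theirs. The counts for the sparse genes include the low reads described above. With counts under 100 set to 0, Il24 met the cutoff in 10 pairs, Ppbp in 4 and Tslp in 22, whereas Nfkbia stayed at 35, Il1rn had 35 and Cxcl1 37, so that 3 members remained past 50% of pairs.

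The sister difference was larger for Cxcl1 than for the other widespread members. The median ratio between sisters was 40.9 for Cxcl1, 6.07 for Tslp, 3.06 for Il1rn and 2.2 for Nfkbia. Ratios of 10 or more occurred in 32 pairs for Cxcl1, 22 for Tslp, 15 for Il1rn and 5 for Nfkbia. The filtered genes had a median of 12 such pairs, and 26 at the 95th percentile. The ERCC transcripts covered in a like number of cells are set beside these values. They had ratios of 10 or more in 19 to 26 pairs for the coverage of Cxcl1 (5 transcripts, median ratios 4.97 to 41.7) and in 22 to 23 for that of Tslp (3 transcripts, median ratios 6.74 to 8.50). For the coverage of Il1rn it was 20 to 21 pairs (3 transcripts, median ratios 3.65 to 6.23), and for that of Nfkbia 0 to 4 pairs (22 transcripts, median ratios 1.08 to 1.92). The sister differences of Tslp and Il1rn thus lay at or below the range of the spike-in. For Cxcl1 the number of 10-fold pairs lay above that range and the median ratio inside it. The values of Nfkbia lay above those of its 22 transcripts, but these are the same transcripts that gave the size factors. The scaling narrows their ratios by construction, so nothing is concluded for Nfkbia from this comparison. Among other genes, Ier3 differed by the 1.5-fold cutoff in 26 pairs and Krt14, a keratin of basal cells, in 17.

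**Figure D4:**
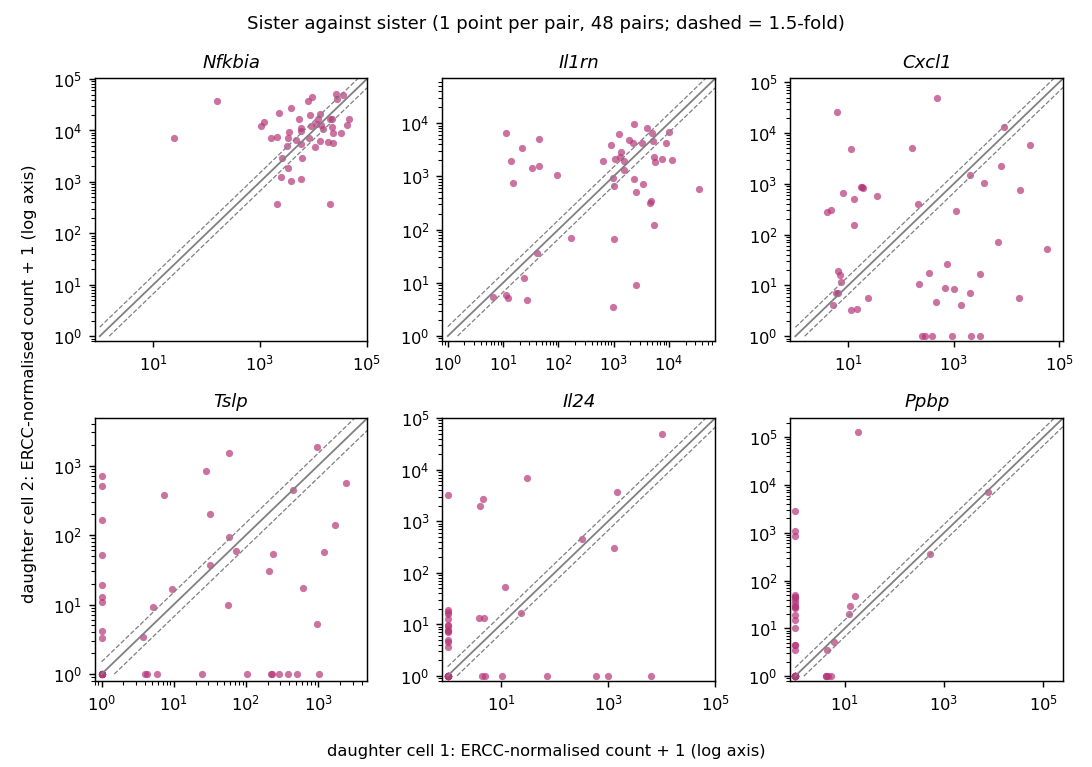
ERCC-normalised count + 1 of daughter 2 against daughter 1 (both log axes) for 6 genes, with 1 point per pair, the line of equality (solid) and the 1.5-fold cutoff (dashed). Nfkbia lies near the diagonal with a median ratio of 2.2, Cxcl1 fills the corners off the diagonal with a median ratio of 40.9, and Ppbp has 1 pair on the diagonal at 4996 and 5227 reads.

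How alike sisters are was also measured as the intraclass correlation of log2(CPM + 1), which is near 1 where sisters match and near 0 where they are no more alike than unrelated cells. It was 0.444 for Il24, 0.443 for Il33, 0.355 for Il1rn, 0.324 for Ppbp and 0.175 for Tslp. Ccl20 (0.0947), Nfkbia (0.0737), Cxcl1 (0.0173), Cxcl2 (0.00407) and Il1a (-0.0332) were at or below the median of the filtered genes, 0.111. No member exceeded 0.5, which 4.4% of the filtered genes did. ERCC transcripts of like coverage had -0.141 to 0.131 beside Il24, -0.0552 to 0.0217 beside Il1rn, -0.00538 to 0.0946 beside Tslp and up to 0.414 beside Ppbp and Il33. Beside Cxcl1 they had -0.129 to 0.300, and beside Nfkbia 0.0161 to 0.806 (median 0.483). The highest spike-in values were those beside Nfkbia, from the 22 transcripts that also gave the size factors. What sets the spike-in values was not tested, so nothing is concluded from them about the likeness of sisters. Several of the values of the members rested on single sets of 8 libraries. Without set 7, which holds pair 27, Il33 was at -0.0104. Ppbp was 0.0575 without set 3, which holds pair 10, and 0.552 without set 5, which holds pair 17. Il24 was 0.262 without set 2, which holds pair 8, and 0.505 without set 3. For Il1rn the range over the sets left out was 0.245 to 0.453, and with set means removed the value was 0.206.

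From cell to cell, the levels of the members were only weakly related. Among the 7 members past the filter, the 21 Spearman correlations over the 96 cells ran from -0.24 (Il1rn with Ccl20) to 0.21 (Il24 with Cxcl1), with a median of 0.0520. None reached 0.5, a level met by 0.0164% of all combinations of filtered genes. The 96 points share pairs, sets and depth, and correlations are given as descriptions. The correlations stayed between -0.15 and 0.25 with counts under 100 set to 0. Cxcl1 and Nfkbia had a correlation of 0.20, and the same sister was higher for both in 27 of 48 pairs. Cxcl1 and Tslp had 0.19, with the same sister higher in 28 of 40 pairs that had a difference in both. Most cells carried a few of the 10 genes: 33 cells had 3 at 100 or more reads, 25 had 2, 18 had 4, 9 had 1 and 1 had none.

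In 10 cells 5 or 6 of the members were covered together. Cell 27-1 had Ccl20 (36871 reads), Il1rn (7088), Cxcl1 (5619), Tslp (849) and Il33 (323) beside Nfkbia, and cell 8-2 had Il24 (40810), Cxcl1 (38960), Cxcl2 (3001), Il1rn (1165) and Tslp (134). Cell 10-1 had Il1rn (7158), Ppbp (4996), Il24 (4039), Il1a (294) and Cxcl1 (102). Its sister 10-2 shared Ppbp (5227) but had no Il24 or Il1a read. Cell 17-2, with the highest Ppbp count, had no Cxcl1 read, and its sister 17-1 had 2117.

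The genes most like each member over the 96 cells were looked up for the 7 members past the filter, as the 3 highest Spearman correlations on CPM. For Il1rn these were Krt6b (0.51), Krt6a (0.50) and Gm5414 (0.46). Krt6a and Krt6b encode keratins of wounded epithelium. With Krt6a the value was 0.67 on the means of the 48 pairs and 0.41 with set means removed, and 0.46 to 0.55 as each set was left out. Within pairs the same sister was higher for both in 28 of 48. For Il24 the highest were Gm11597 (0.50), Krt16 (0.46) and Igf2bp2 (0.44). Krt16, another wound keratin, was covered in all 15 cells covered for Il24, but also in 85 of all 96 cells. With Krt16 the value was 0.54 on pair means, 0.37 with set means removed and 0.40 with counts under 100 set to 0, and the same sister was higher for both in 17 of 31 pairs. For Cxcl1 they were Krt17 (0.41), Gm17056 (0.39) and Hbegf (0.38), the last encoding a growth factor of the EGF family.

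**Figure D5:**
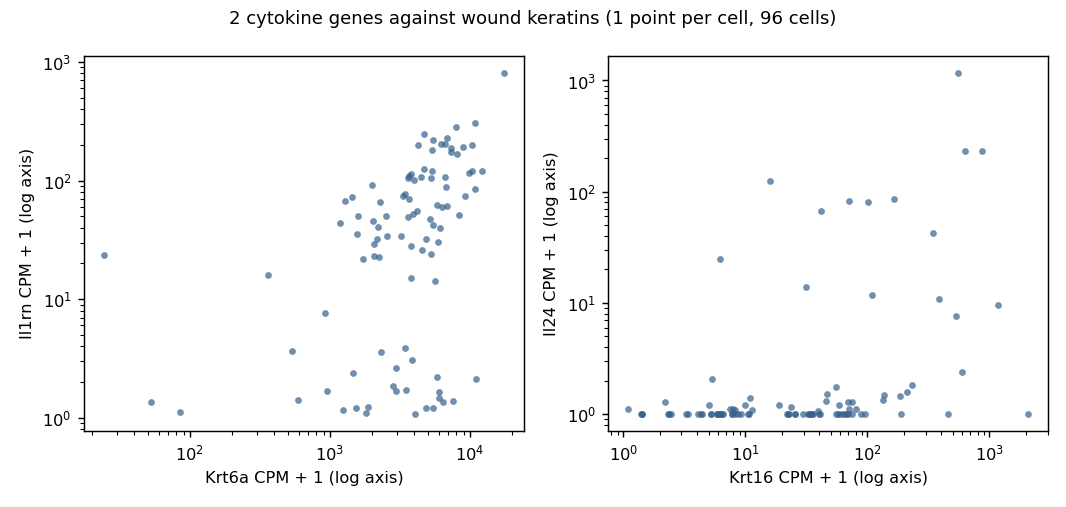
CPM + 1 (log axes) of Il1rn against Krt6a (left) and of Il24 against Krt16 (right), with 1 point per cell for 96 cells. Cells with Krt6a in the upper range hold the high Il1rn values, although a band of low Il1rn cells lies below them (Spearman correlation 0.50), and the 3 highest Il24 cells lie at high Krt16, whereas cell 10-1, the next, has 15.1 CPM of Krt16, below the median of 31.2 CPM (0.46).

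For Nfkbia the nearest genes were Ugt2a1 (0.47), Mbnl2 (0.44) and Creg1 (0.44), and for Tslp they were Pex2 (0.44), Gm29216 (0.43) and Hsbp1 (0.42). The nearest genes of Ccl20 were Trim47 (0.50), Olfml2a (0.48) and Ephb6 (0.44), and those of Ppbp were Pxdn (0.45), Dsn1 (0.41) and Pdk2 (0.39). Those of Ccl20 and Ppbp leaned on the low counts. With the counts of the member under 100 set to 0, Ccl20 had 0.21 with Trim47 and 0.16 with Olfml2a, and Ppbp had 0.24 with Pxdn. Under the same change Il1rn kept 0.50 with Krt6a, and Cxcl1 had 0.51 with Hbegf. The correlation of CPM with the ERCC size factor was between -0.19 and 0.0030 for 6 of them and -0.31 for Cxcl1. The count of Cxcl1 had a correlation of -0.0020 with the total of gene reads. For the others that correlation ran from -0.20 (Ccl20) to 0.25 (Nfkbia). What the relation with the size factor adds to the Cxcl1 values was not tested.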

How the data were processed

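Single-cell RNA-seq was deposited for 96 daughter cells of 48 HBC pairs. According to the labels and methods, the authors trimmed reads with Trimmomatic 0.39, aligned read pairs with STAR 2.7.11a to GRCm38 (Ensembl release 100) plus the ERCC sequences, and used StringTie 2.2.1 for gene counts. Strand handling is not given in the sources used here. The deposited counts are whole numbers of reads per gene, with no normalization, and the deposited TPM values are StringTie's, scaled for gene length per cell.

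From the counts, CPM (counts scaled to an equal total of gene reads) and ERCC-normalised counts were computed with Python 3.11.15, numpy 2.4.6, pandas 2.3.3 and scipy 1.17.1. Size factors were medians of ratios over the 22 of 92 ERCC transcripts counted in all cells. A pseudocount of 1 was added before ratios and log2. The background was the 14463 genes that reached a count of 10 in 10% of cells or more. The 1.5-fold cutoff is the one the study used for asymmetry. The code was tested on simulated data. Depth was 29454150 to 44849003 gene counts per cell; intervals are exact at 95% and, without molecular identifiers, cover counting error only.

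Cells of 1 culture condition are not replicates, so no test was run. The members, gene lists and rules were chosen with earlier results of these data known. The text names the 10 members, the 3 genes most correlated with each, and genes of the lists that passed the filter or, for receptors and neighbours, were at 0. Il1rl1, Casp1, Cxcl3, Gm14023, Tnf and the cell type markers below the filter were named after their values were seen, as were the level of 100 counts, the level of 3000 Cxcl1 counts, the comparison with ERCC transcripts covered in a like number of cells (within 5) and the removal of single sets. Il36g is listed as Il1f9 in the count matrix. Ccl19 and Ccl27a, with several rows each, were not used. Motifs were searched in RefSeq start-site windows.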

Additional observations from a re-analysis of the deposited data

How the results depend on the processing

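With set means removed, the intraclass correlations of Ccl20 (-0.0634), Nfkbia (-0.0689), Cxcl1 (-0.0917) and Cxcl2 (-0.165) were below 0. Of the members, 1 instead of 3 was counted in at least 90% of cells at a TPM of 1 or more, and 1 at a count of 100. Over pairs in which a sister had 10 or more counts, 10 members met the 1.5-fold cutoff in at least 50% of pairs, and 3 did with counts under 100 set to 0. In both cases the construction sets the number, since pairs of low counts leave or enter it. With ERCC-normalised counts 1 member (Il33, 0.526) exceeded an intraclass correlation of 0.5, and leaving out each set in turn gave 0 to 1. The background share past the 1.5-fold rule was 37.7% without a filter and 86.8% where a count of 10 was required in 50% of cells. For the intraclass correlation these shares were 2.61% and 5.29%. For the sister cutoff, other scalings, TPM, a 2-fold cutoff and a pseudocount of 10 left the number of members within 1.5 times (4 to 6). No paired analysis was possible because no group was compared with another. Limits are the single condition, counts without molecular identifiers, the low counts that follow set and position, and isolated counts of up to 2570 for rare spike-in transcripts. A gene without reads may still be expressed, since 8 transcripts of the spike-in mix added to every cell were counted in 1 cell each.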

Other observations

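Other chemokine and cytokine genes were more widespread than most of the 10. Cxcl16, which encodes a membrane-bound chemokine, was covered at 100 or more reads in 90 cells with a median count of 3726.5, and its intraclass correlation between sisters was 0.57. Cx3cl1, the other membrane-bound chemokine, was covered in 53 cells (median count 265), and Ccl25, a ligand of CCR9, in 51 (median count 115.5). Il36g, the IL-1 family ligand named above, had an intraclass correlation of 0.55. Of 30 chemokine ligand genes with 1 row each, 7 passed the filter on low counts and 13 had no read in any cell, among them Ccl2, Ccl5 and Cxcl12. Of all 55487 genes, 14463 passed the filter and only 32924 had a read in any cell, so these numbers are not particular to chemokines.

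Among other wound cytokines, Csf3, which encodes the granulocyte factor G-CSF, was covered in 26 cells with a highest count of 4782, and Lif in 25 with a highest count of 7369. Only 1 sister was covered in 18 and 19 of the 22 pairs that had any for each. The spike-in gave a like pattern, with 1 covered sister in 436 of 629 pairs over the 21 transcripts covered in 11 to 71 cells. Csf1 was covered in 11 cells and Il11 in 10, in each case without a pair covered in both sisters. Tnf had 1 read in 1 cell, and Csf2 none.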
